A study of Mus musculus with 236 samples.

Results

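The 10 genes Has2, Fn1, Lama1, Lamb1, Lamc1, Col4a1, Col4a2, Sparc, Nid1 and Adamts6 build, bind or cut the extracellular matrix. They were taken by name, 10 of the 39300 gene rows of the total UMI table, and all 10 had at least 20 UMIs over both days. A UMI (unique molecular identifier) marks 1 captured RNA molecule. They were described by their level at each day, by the share of cells with a UMI, and by whether a higher level lay over many cells or in a few.

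A basement membrane is a thin sheet of matrix under epithelial cells. Laminins, each made of an alpha, a beta and a gamma chain, polymerise at the cell surface through integrins and dystroglycan, and type IV collagen forms a network of its own, with nidogen linking both. In the mouse embryo the epiblast rests on such a sheet, which it meets as it leaves naive pluripotency, and much of that sheet is made by the neighbouring primitive endoderm. Fibronectin and hyaluronan belong to the looser matrix beside it.

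The cells came from 1 female embryonic stem cell line, derived from blastocysts of a C57BL/6J mother and a CAST/EiJ father, and were measured with HiRES, which reads chromatin contacts and RNA in the same cell. Both groups had been grown with serum, LIF and the inhibitors CT99021 (of GSK3) and PD0325901 (of MEK) on gelatin, and were then moved to medium with serum but without LIF and inhibitors, on plates coated with fibronectin protein. They differ in the time since that change, 0.5 or 2.5 days, and no control kept in LIF and inhibitors was analysed here. The question is which genes change as random X inactivation begins.

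RNA was available for 406 cells, 49.5% of them at day 0.5 and 50.5% at day 2.5. They came from libraries of 1 or 2 cells, none of which shared a cell name with another. Depth per cell ran from 501 to 23213 UMIs (median 13670) at day 0.5, and from 529 to 29275 (median 15796) at day 2.5. No label names separate cultures, so each day is 1 sample, no test was made, and all intervals are 95% and cover counting error only. The cell tables give 3 further labels, here called batches, without saying what they stand for. Batch 1 was 80 cells of day 0.5, batch 3 was 83 cells of day 2.5, and batch 2 took in all other cells of both days. Of 12 genes of lineages that should be absent, such as Ptprc and Myh6, none had a UMI in more than 6 cells at day 0.5 or 7 cells at day 2.5. Of the 11 naive pluripotency genes, 9 had at least 20 UMIs and all 9 were lower at day 2.5, with a summed level of 1258 CPM (a gene's UMIs scaled to the same total at each day) at day 0.5 and 85.7 CPM at day 2.5.

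A gene was called higher or lower when its CPM differed by at least 1.5 times between the days and went the same way in cells of both letters, A and B, that the cell names carry. By this size rule 5 of the 10 genes were higher at day 2.5 (Has2, Adamts6, Lamb1, Col4a1 and Lama1), where 19.4% of the 13777 genes with at least 20 UMIs were called higher. Another 4 were lower (Fn1, Lamc1, Sparc and Nid1), where 20.4% of those genes were called lower, and Col4a2 was neither. The genes thus did not go 1 way. Under median-ratio scaling Lamc1 was 1.42 times lower and no longer called, which left 3 lower genes. Their median change was 0.86 on the scale log2(CPM + 5), against -0.06 over all genes tested. For all 10 genes the levels of both batches at day 2.5 lay on 1 side of both batches at day 0.5. That was above for 6 genes, as for 30.7% of all genes tested, and below for 4, as for 37.1%.

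**Figure D1:**
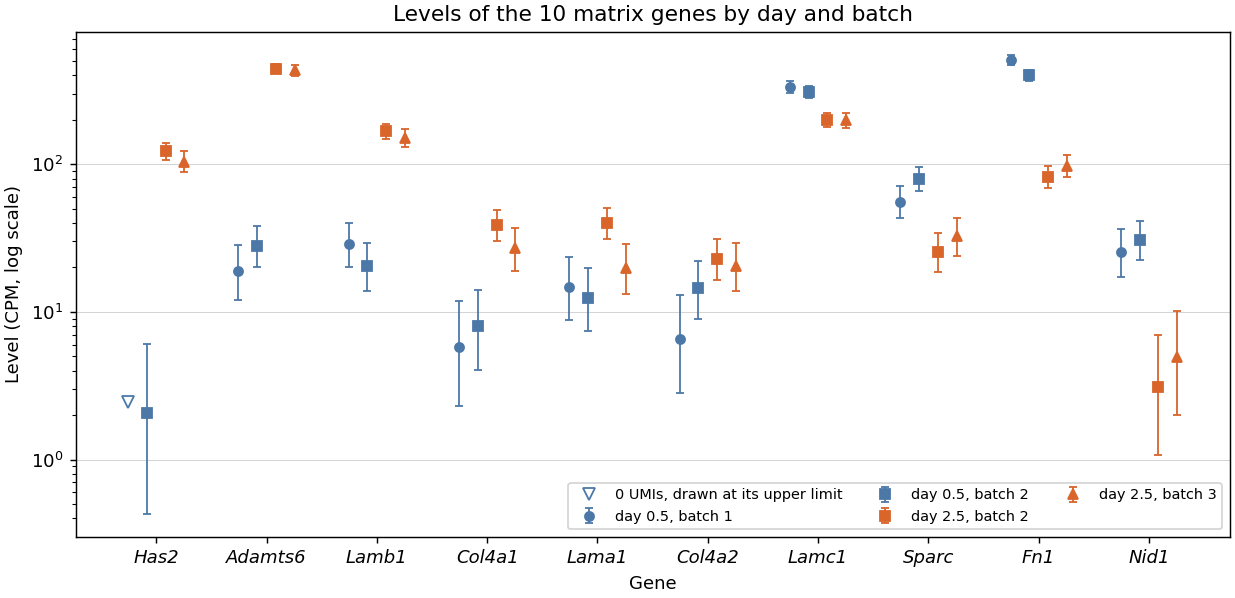
Level of each of the 10 genes in CPM on a log axis, for the 2 batches of day 0.5 (blue) and the 2 batches of day 2.5 (orange), with 95% Poisson intervals. Has2 had 0 UMIs in batch 1 and is drawn at its limit of 2.47 CPM. The orange points of Has2 and Adamts6 lie above the blue ones by the widest gaps, and those of Fn1 and Nid1 lie below.

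Where the starts of the genes could be read, their DNA is shown here because the starts of a pair of these genes lie close together. RefSeq's promoter table for GRCm38 held 5 of the 10 genes. Col4a1 and Col4a2 lie head to head on chromosome 8 and are read in opposite directions. Their windows of 250 bases before and 50 bases after the start share 78 bases, chr8:11312777-11312854. The lines below give the 250 bases before the start that the promoter table uses, 5′ to 3′ on each gene's own strand, with CCAAT boxes (CCAAT) and GC boxes (GGGCGG), searched on both strands, in capitals. For Lamb1 and Col4a1 RefSeq annotates the gene from a start further upstream, so 58.8% and 25.2% of the printed stretches lie inside the gene as its coordinates are given here. The printed stretches of Col4a1 and Col4a2 share no base, and the 78 shared bases belong to the wider windows. Each of these 2 stretches lies wholly inside the other gene of the pair by those coordinates. Lamb1 stands for a gene that was higher at day 2.5 and Nid1 for one that was lower.
Col4a1, chr8:11312827-11313076, minus strand: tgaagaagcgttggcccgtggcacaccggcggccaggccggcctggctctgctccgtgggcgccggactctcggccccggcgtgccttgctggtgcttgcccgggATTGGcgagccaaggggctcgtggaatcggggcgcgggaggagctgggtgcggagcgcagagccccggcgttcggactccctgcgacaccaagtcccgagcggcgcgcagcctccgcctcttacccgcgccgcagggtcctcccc
Col4a2, chr8:11312555-11312804, plus strand: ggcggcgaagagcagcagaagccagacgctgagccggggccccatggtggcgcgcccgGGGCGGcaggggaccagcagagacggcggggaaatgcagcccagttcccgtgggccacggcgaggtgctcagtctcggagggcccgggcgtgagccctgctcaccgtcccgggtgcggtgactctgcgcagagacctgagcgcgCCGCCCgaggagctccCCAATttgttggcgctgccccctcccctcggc
Lamb1, chr12:31265043-31265292, plus strand: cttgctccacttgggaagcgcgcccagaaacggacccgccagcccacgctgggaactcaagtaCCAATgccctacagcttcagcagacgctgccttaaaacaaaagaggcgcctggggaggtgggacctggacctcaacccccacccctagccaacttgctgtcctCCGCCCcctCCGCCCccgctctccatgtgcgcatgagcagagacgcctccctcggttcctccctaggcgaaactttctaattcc
Nid1, chr13:13437352-13437601, plus strand: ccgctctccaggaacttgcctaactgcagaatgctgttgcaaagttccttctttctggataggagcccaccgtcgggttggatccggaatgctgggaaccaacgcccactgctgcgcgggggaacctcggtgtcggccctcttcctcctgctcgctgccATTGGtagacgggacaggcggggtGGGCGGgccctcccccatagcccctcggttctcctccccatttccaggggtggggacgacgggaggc

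A CCAAT box occurred in these 4 windows, and in 33.8% of all 32851 promoters of the table. A GC box occurred in 3 of them, all but Col4a1, and in 32.7% of all promoters. Nid1, which was lower at day 2.5, held both motifs, as did Lamb1, which was higher. The fifth promoter, of Sparc (chr11:55420081-55420330, minus strand), held neither. None of the 5 held a TATA box (TATAAA, in 12.4% of all), an AP-1 site (TGANTCA, 6.75%), an E-box (CACGTG, 6.02%), a TCF/LEF site (CTTTGAT, 3.21%) or a GATA site (AGATAA, 9.99%). The Col4a1 and Col4a2 windows were rich in G and C, at 74.4% and 73.6%, against a median of 52.4% over all promoters. They held 31 and 26 CG dinucleotides, against a median of 6. Sparc had 54% G and C and 4 CG dinucleotides.

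Has2 (chr15:56665627-56694546), the main hyaluronan synthase of embryos, had 3 UMIs, in 3 cells (1.49%), at day 0.5 and 365 UMIs, in 55.6% of cells, at day 2.5. Its level was 0 UMIs in batch 1 (limit 2.47 CPM) and 2.08 CPM in batch 2 at day 0.5, against 122.8 CPM in batch 2 and 104.2 CPM in batch 3 at day 2.5. The days did not overlap, and the 3 cells of day 0.5 were no more than the absent lineage genes reached. Summed over cells the level was 1.13 CPM and then 114.6 CPM, a ratio of 101.4 (34.4 to 494), and within batch 2 the ratio was 58.97 (19.9 to 288). Per kilobase of gene, introns included, Has2 was the lowest of the 10 genes at day 0.5 (0.0391 CPM per kb) and the highest at day 2.5 (3.96 CPM per kb). In CPM, Adamts6 (438), Lamc1 (198.9) and Lamb1 (160.5) stood above it at day 2.5. Has2os, a long noncoding gene that shares 4517 bases with Has2, had 8.28 and 12.9 CPM, and since the use of strand is not given, reads of the shared stretch cannot be told apart.

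The higher level of Has2 lay unevenly over cells. At day 2.5 those 55.6% of cells had a Has2 UMI where 80.03% would have had one if its UMIs had followed each cell's depth alone. With each cell thinned to 5000 UMIs, which leaves out 7 cells of each day, the shares were 0.554% and 31.4%. The 20 cells with the most Has2 UMIs held 50.4% of them, against a median of 35.7% over the 5614 genes with at least 100 UMIs at that day. The highest cells held 25, 22 and 21 UMIs, while the median cell held 1. Overdispersion, the squared coefficient of variation over cells beyond counting error, was 2.65, higher than in 97.8% of those genes, whose median was 0.427. Without the 5 cells with the most Has2 UMIs it was 0.774, and the level was still 85.9 CPM. The higher level was thus both widespread and uneven.

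Adamts6 (chr13:104286518-104496695), a secreted metalloprotease of the ADAMTS family, was the most evenly spread of the 5 higher genes. It had 18.9 and 28.1 CPM in batches 1 and 2 at day 0.5, and 443 and 432 CPM in batches 2 and 3 at day 2.5. Summed levels were 23.9 and 438 CPM, which is a ratio of 18.3 (14.2 to 23.9). Cells with a UMI went from 44 (21.9%) to 91.7% of all cells, where depth alone gives 98.5%. At 5000 UMIs per cell the shares were 10.3% and 77.6%. The 20 top cells held 25.1% of its UMIs and it took 49 cells to hold 50% of them. Its overdispersion of 0.365 was near the median of 0.427, higher than in 42.8% of genes.

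Lamb1 (chr12:31265146-31329644) encodes the beta chain of the laminins of the early embryo. It had 28.8 and 20.5 CPM in the batches of day 0.5 and 167.9 and 151.3 CPM in those of day 2.5. The summed ratio was 6.61 (5.09 to 8.70). A UMI was seen in 34 cells (16.9%) at day 0.5 and in 72.7% of cells at day 2.5, or in 9.40% and 47.2% at 5000 UMIs per cell. The higher level lay over many cells: 35 cells held 50% of the UMIs, no cell held more than 12, and the overdispersion of 0.666 exceeded that of 70.3% of genes.

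Lamc1 (chr1:153218922-153332786), the gamma chain that pairs with Lamb1, was lower at day 2.5 by a margin close to the size of a call. Its batches had 335 and 308 CPM at day 0.5 and 199.1 and 198.8 CPM at day 2.5. The summed level was 1.61 times lower (1.45 to 1.79), and 1.42 times under median-ratio scaling. It was 1.65 times lower in letter A cells and 1.35 times in letter B cells (272.6 to 201.5 CPM), so the call ends under that scaling and in letter B alone. Lamc1 was seen in 88.1% and 80.5% of cells and at day 2.5 its level per kilobase, 1.75 CPM per kb, was below the 2.49 CPM per kb of Lamb1. At day 0.5 the order was the reverse, with 2.81 for Lamc1 and 0.377 for Lamb1. In CPM, not divided by gene length, the order did not change. Lamc1 stood above Lamb1 at day 0.5 (320 against 24.3 CPM) and at day 2.5 (198.9 against 160.5 CPM). Some Lamc1 counts are fractions, and a pseudogene, Gm8818, lies within the gene, so part of its UMIs may have been shared out by the counting.

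Lama1 (chr17:67697127-67822645), the alpha chain of laminin-111, was low and sat in few cells. Its batches had 14.8 and 12.5 CPM at day 0.5, and 40.0 and 19.8 CPM at day 2.5, where the batches stood further apart than counting error (31.2 to 50.5 and 13.2 to 28.7 CPM). The summed ratio was 2.29 (1.55 to 3.46), from 36 to 99 UMIs. A UMI was seen in 10.4% of cells at day 0.5 and in 23.9% at day 2.5. At day 2.5, 11 cells held 50% of the UMIs, and 2 cells of batch 2 held 11 UMIs each. Overdispersion was 5.22, and 1.36 without the 5 top cells, which lowered the level from 31.1 to 20.8 CPM. At day 0.5 overdispersion was 5.29, from 36 UMIs, and leaving out the 5 top cells lowered the level from 13.6 to 7.78 CPM. With both days trimmed in this way the ratio was 2.68. The 5 cells were picked by their Lama1 UMIs, out of 21 cells with a UMI at day 0.5 and 49 at day 2.5. The cut thus took a larger part of the day 0.5 level, and this ratio is no support for the higher level.

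Type IV collagen is a trimer of 2 chains from Col4a1 and 1 from Col4a2 in most basement membranes. Col4a1 (chr8:11198423-11312889) had 5.76 and 7.98 CPM in the batches of day 0.5 and 38.9 and 26.9 CPM in those of day 2.5, a summed ratio of 4.82 (2.93 to 8.38). Col4a2 (chr8:11312805-11449287) had 6.58 and 14.6 CPM, then 22.8 and 20.6 CPM, a summed ratio of 2.00 (1.28 to 3.20). Within batch 2 the Col4a2 ratio was 1.57 with an interval that includes 1 (0.902 to 2.79). In the cells of letter B it went the other way, from 20.2 to 11.9 CPM, so it was not called. Those letter B levels rest on under 20 UMIs over both days, and no interval was computed for them. Both genes overlap by 85 bases at their starts, and strand use is not given. A Col4a1 UMI was seen in 7.96% of cells and then 28.3%, and a Col4a2 UMI in 11.4% and then 20.5%. At day 2.5 a UMI of both was seen in 15 cells, of 58 with Col4a1 and 42 with Col4a2. The overdispersion of Col4a1 at day 2.5 (2.08) exceeded that of 96.2% of genes, and 16 cells held 50% of its UMIs.

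Fn1 (chr1:71585473-71653280), which encodes fibronectin, was the highest of the 10 genes per kilobase at day 0.5. Its batches had 506 and 400 CPM at day 0.5 and 82.3 and 97.4 CPM at day 2.5. The summed level was 5.04 times lower at day 2.5 (4.43 to 5.76), and cells with a UMI went from 90.5% to 51.2%, or from 78.6% to 29.1% at 5000 UMIs per cell. The lower level was also the more uneven one. At day 0.5 it took 48 cells to hold 50% of the UMIs and overdispersion was 0.316, below the median of that day (0.388). At day 2.5 it took 23 cells, overdispersion was 1.41, higher than in 91.2% of genes, and 51.2% of cells had a UMI where depth alone gives 72.2%. Without the 5 top cells overdispersion at day 2.5 was 0.876. The counts of 48 and 23 cells come from 1191.5 and 283.5 UMIs, and fewer UMIs by themselves lie in fewer cells. Both groups had been plated on fibronectin protein.

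Nid1 (chr13:13437602-13512275), the nidogen that links laminin to type IV collagen, was lower at day 2.5, where few UMIs of it were seen. It had 25.5 and 30.9 CPM in the batches of day 0.5 and 3.10 and 4.96 CPM in those of day 2.5. The ratio of day 0.5 to day 2.5 was 7.25 (3.95 to 14.4), an interval that takes in that of Fn1, and cells with a UMI went from 50 to 11. Only 12.5 UMIs were left at day 2.5, too few to describe their spread over cells. Sparc (chr11:55394159-55420080), a collagen-binding matricellular protein, had 55.9 and 79.8 CPM at day 0.5 and 25.6 and 32.6 CPM at day 2.5. Its level was 2.40 times lower (1.86 to 3.12), and cells with a UMI went from 48.8% to 34.1%, close to the 35.3% that depth alone gives at day 2.5.

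**Figure D2:**
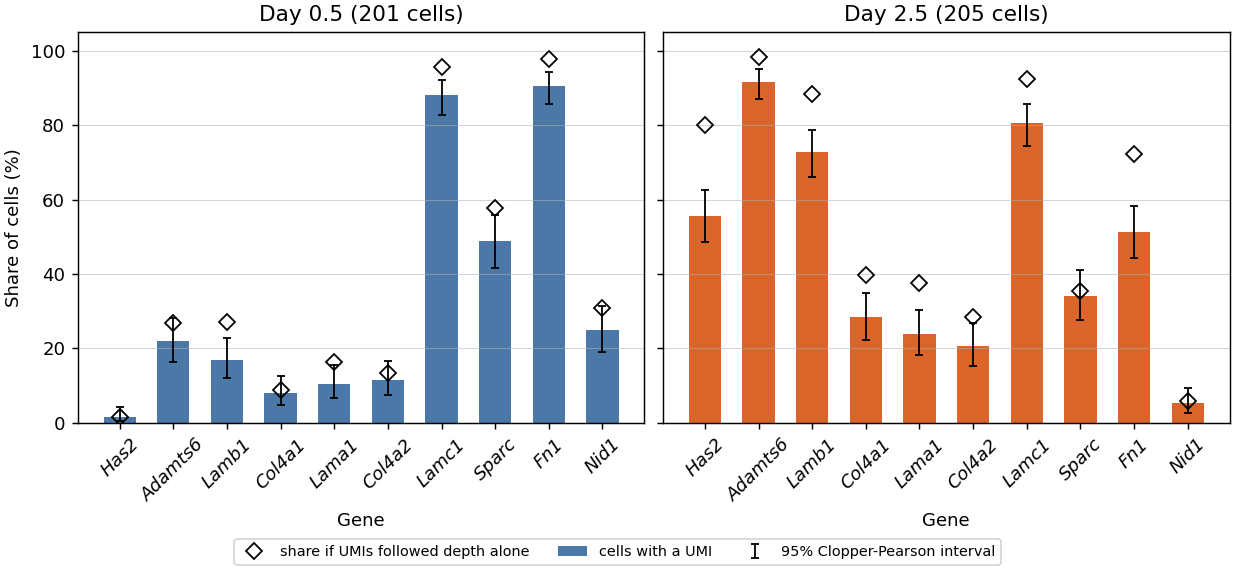
Share of cells in percent with at least part of a UMI of each gene at day 0.5 (left) and day 2.5 (right), with 95% Clopper-Pearson intervals. Diamonds give the share if the gene's UMIs followed depth alone. At day 2.5 the bar of Has2 (55.6%) lies further below its diamond (80.03%) than any other bar.

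The 5 higher genes ranged from Adamts6, seen in most cells, to Col4a1 and Lama1, seen in under 30% of cells. At day 2.5, the 20 top cells held 25.1% of the UMIs of Adamts6, 34.02% of Lamb1, 50.4% of Has2, 58.9% of Col4a1 and 68.7% of Lama1. Both shares follow the number of UMIs, which ran from 1394.5 for Adamts6 to 99 for Lama1, as well as the spread. By overdispersion, which takes counting error off, Lama1 (5.22, from 99 UMIs) stood highest, followed by Has2 (2.65) and Col4a1 (2.08). Lamb1 (0.666) and Adamts6 (0.365) stood below these. Without the 5 top cells of each gene Has2 (0.774) stood below Col4a1 (1.39) and Lama1 (1.36), so the order of the uneven genes changed. This cut takes off the top of each gene's own counts, which by itself lowers overdispersion. The genes they are ranked among were not cut in this way.

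**Figure D3:**
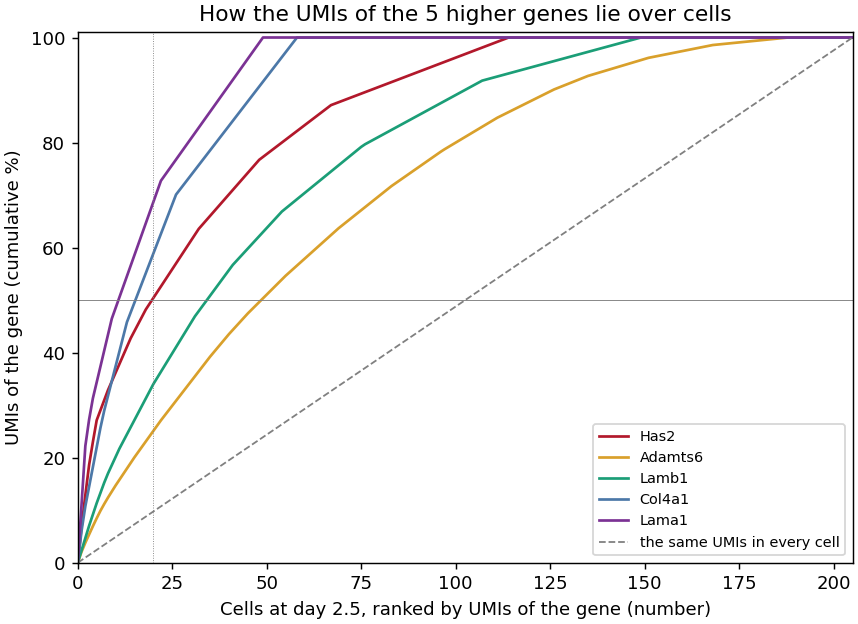
Cumulative share of a gene's UMIs in percent over the cells of day 2.5, ranked by UMIs of that gene, for the 5 genes called higher. The dotted line marks 20 cells, which hold 25.1% of the UMIs of Adamts6 and 68.7% of those of Lama1. The dashed line is what the same UMIs in every cell would give.

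**Figure D4:**
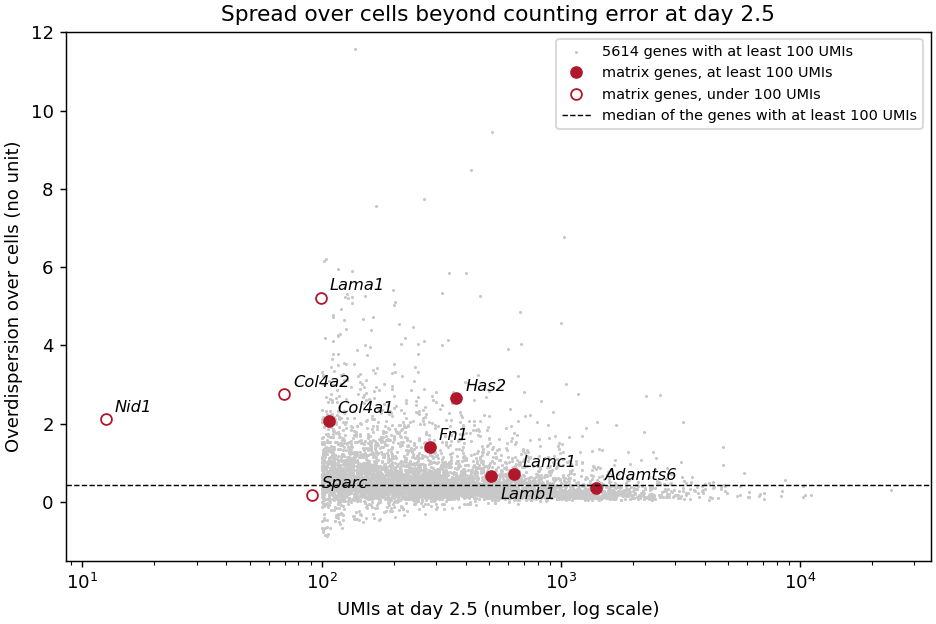
Overdispersion over the cells of day 2.5 (no unit) against the gene's UMIs at that day on a log axis, with the 5614 genes of at least 100 UMIs in grey and the 10 matrix genes in red, open below 100 UMIs. Has2 (2.65) and Col4a1 (2.08) lie near the upper edge for their UMIs, and Adamts6 (0.365) lies close to the median line (0.427).

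Levels were also read by the cell cycle classes of the authors' cell table. At day 2.5 Lama1 had 60.6 CPM (47.2 to 76.7) in 82 G1 cells and 6.51 CPM (2.62 to 13.4) in 62 Mid-S cells. At day 0.5 it had 4.03 CPM (0.488 to 14.5) in 41 G1 cells and 10.6 CPM (5.63 to 18.1) in 87 Mid-S cells, so the days stood apart in G1 cells, while the intervals in Mid-S cells overlapped. In Late-S cells Lama1 went the other way, from 43.3 CPM (23.7 to 72.6) in 20 cells at day 0.5 to 15.6 CPM (4.25 to 39.96) in 17 cells at day 2.5, with intervals that overlap, and within batch 2 from 35.3 to 17.3 CPM. The ratio of G1 to Mid-S at day 2.5 was 9.31 (4.28 to 24.01), 5.35 without the 5 top cells, and within batch 2 the levels were 94.5 and 8.68 CPM. Mid-S was the lowest class for Lama1 at day 2.5, with 24.3 CPM (8.90 to 52.8) in Early-S and 29.3 CPM (14.6 to 52.4) in G2 cells. Batch 2 held 55 of the 69 Lama1 UMIs in G1 cells, so the G1 level is largely that of batch 2. Col4a1 had 58.9 and 23.3 CPM in G1 and Mid-S cells, and Col4a2 had 36.9 and 9.30 CPM, ratios of 2.53 (1.58 to 4.18) and 3.97 (1.96 to 8.86). Without the 5 top cells these ratios were 2.20 and 2.60. Has2 had 122.1 and 110.7 CPM, with a ratio of 1.10 (0.857 to 1.42), and without its 5 top cells it turned to 71.8 and 92.03 CPM, a ratio of 0.780. G1 cells were shallower, with a median of 13948.5 UMIs against 17448 in Mid-S cells, and the part of depth and of the class rule in these differences was not tested. At day 0.5 Nid1 was lower in Mid-S cells, at 11.4 CPM (6.22 to 19.1), than in the other 4 classes, at 35.8 to 46.4 CPM.

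Markers of primitive endoderm, the main maker of this matrix in the embryo, were read beside these levels. Of 18 such genes, 5 had at least 20 UMIs: Dab2 was higher (8.66 to 26.99 CPM), Hnf4a and Srgn were lower, and Gata4 was neither (12.8 and 13.5 CPM). Fst went from 1 to 44 UMIs (0.377 to 13.8 CPM), a ratio of 36.7 (6.25 to 1481). It was not called only because it was not higher in both letters. The defining factors Sox17 and Gata6 had 0 and 1.5 UMIs at day 0.5 and 2 and 4 UMIs at day 2.5, and Sox7 and Foxa2 had 0 at both days. The summed level of the 18 genes was 94.8 to 96.7 CPM in the batches of day 0.5 and 78.3 to 87.9 CPM in those of day 2.5. In the 5 cells with the most Lama1 UMIs it was 75.7 CPM, from 5 UMIs, against 82.7 CPM in the other cells of day 2.5. In the 5 top Has2 cells it was 141.2 CPM, from 12.5 UMIs, against 80.9 CPM. Of 12 fibroblast markers, Postn and Acta2 had 0 UMIs at both days, Col1a1 had 1 and 0, and Col1a2 and Col3a1 had 0 and then 3 each. Named after their values were seen, Twist2 went from 2 to 16 UMIs, a ratio of 6.67 (1.57 to 59.8), Dcn from 4 to 11, and Thy1, the 1 marker with at least 20 UMIs, from 15 to 5. The summed level of the 12 was 9.72 to 13.99 CPM in the batches of day 0.5 and 12.96 to 17.7 CPM in those of day 2.5. The part of such cells in the levels of the 10 genes was not tested.

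Likeness between genes was described over cells. Over all cells of day 2.5, Pearson's r of log2(1 + UMIs per 10000 UMIs) ranged from -0.15 to 0.23 over 45 pairs, with a median of 0.01. The highest was Fn1 with Col4a1, and at day 0.5 the range was -0.17 to 0.19. Cells share depth and libraries, and values this weak in counts this sparse say nothing of whether the genes vary together. Of the 5614 genes with at least 100 UMIs, none reached r of 0.3 with Fn1, Lamb1 or Lamc1. The most alike were Cyp7b1 (0.36), Setbp1 (0.35) and Rbpms (0.34) for Adamts6. For Has2 they were Tmem68 (0.33), Pabpc1 (0.31) and Bend4 (0.30), and for Col4a1 Msl2 (0.32) and Bahcc1 (0.31). These were picked as the highest among 5614 genes. How high r would reach in such a search without any likeness was not tested.

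Among 7 other laminin chains, 1 was higher, 1 was lower and 5 were neither, with a median change of -0.06. Over all genes tested 19.4% were called higher and 20.4% lower, so these counts are near the general share. Lama2 was higher (12.05 to 22.6 CPM), and Lamb3, named after its value was seen, was lower (7.15 to 4.24 CPM). Lama5, the alpha chain of laminin-511 and the chain with the most UMIs, had 97.3 and 100.9 CPM. Lamc3 had 41.98 and 20.4 CPM but did not go the same way in both letters, and Lama3 had 18.4 and 12.9 CPM.

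Of 14 other basement membrane components with at least 20 UMIs, 5 were higher, 1 was lower and 8 were neither (all genes tested: 19.4% higher, 20.4% lower). Fras1, a large protein of embryonic basement membranes, had 13.9 and then 157.1 CPM, a ratio of 11.3 (8.07 to 16.2). The 4 other higher genes, named after their values were seen, were its partner Frem2 (4.89 to 72.3 CPM), the type IV collagens Col4a6 (8.28 to 68.7 CPM) and Col4a5 (12.8 to 33.9 CPM), and Npnt. Nid2, the second nidogen, was lower, from 153.6 to 95.6 CPM, as Nid1 was. The proteoglycans Hspg2 (102.03 and 88.7 CPM) and Col18a1 (339.6 and 364 CPM) were neither.

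For hyaluronan, 4 of 10 genes with at least 20 UMIs were higher and 1 was lower (all genes tested: 19.4% and 20.4%). Has2 was the synthase that differed: Has1 had no UMI at day 2.5, and neither it nor Has3 reached 20 UMIs over both days. Ugdh, which makes a precursor sugar of hyaluronan, was lower (52.1 to 30.5 CPM), and Ugp2 was neither (30.9 and 31.1 CPM). Cemip2 was higher (83.4 to 167.9 CPM), and the receptor Cd44, named after its value was seen, had 1 UMI at day 0.5 and 25 at day 2.5. Hmmr had 99.4 and 93.1 CPM. Hyal1 and Hyal3, also called higher and named after their values were seen, had ratios with intervals that include 1. These were 1.81 (0.944 to 3.64) and 1.67 (0.906 to 3.18), and within batch 2 Hyal1 had 6.71 and 7.32 CPM. Each was seen in 25 cells at day 0.5, and they were seen in 54 and 57 cells at day 2.5. Whether they share reads was not tested.

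Of 18 other ADAMTS proteases 13 had at least 20 UMIs, and of these 7 were higher and 2 were lower. Over all genes tested the shares were 19.4% and 20.4%. Adamts19 had 16.8 and then 121.9 CPM, a ratio of 7.28 (5.33 to 10.2), and Adamts10 and Adamts17 had ratios of 3.04 and 2.19. Adamts9, the member with the most UMIs, was 2.92 times lower (189.6 to 64.97 CPM). None of the others matched the ratio of 18.3 of Adamts6. Of 11 matrix metalloproteases and inhibitors 8 had at least 20 UMIs. Of these 4 were higher, among them Mmp16 (10.5 to 79.7 CPM) and Mmp2 (1 to 44 UMIs), and 2 were lower, among them Mmp11 (22.2 to 6.59 CPM).

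Of 24 integrins and other matrix receptors 20 had at least 20 UMIs, and of these 6 were higher and 6 were lower. Over all genes tested 19.4% were higher and 20.4% lower, and the counts below also cover only genes with at least 20 UMIs. Itgb5 was higher (58.5 to 172.9 CPM), while Itga6 and Itgb1, the chains of a laminin receptor, had 250.9 and 176.3 CPM and 118.4 and 110.2 CPM, and dystroglycan (Dag1) had 213.3 and 182.04 CPM, all below the size of a call. Of 9 interstitial collagens and fibronectin partners (19 were listed), 6 were higher and 1 was lower, with Vcan at 34.3 and 83.5 CPM and Col5a2 at 4.52 and 21.3 CPM. Of 8 matricellular relatives of Sparc (11 were listed), 3 were higher, such as Spock3 (14.7 to 41.4 CPM), and 2 were lower, such as Fstl1 (189.01 to 99.5 CPM). Of 13 genes that fold, export or crosslink collagen (20 were listed), 4 were higher and 3 were lower. The lysyl hydroxylase Plod2 went from 20.9 to 91.8 CPM and Sec24d, of the secretory coat, from 64.01 to 35.8 CPM.

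**Figure D5:**
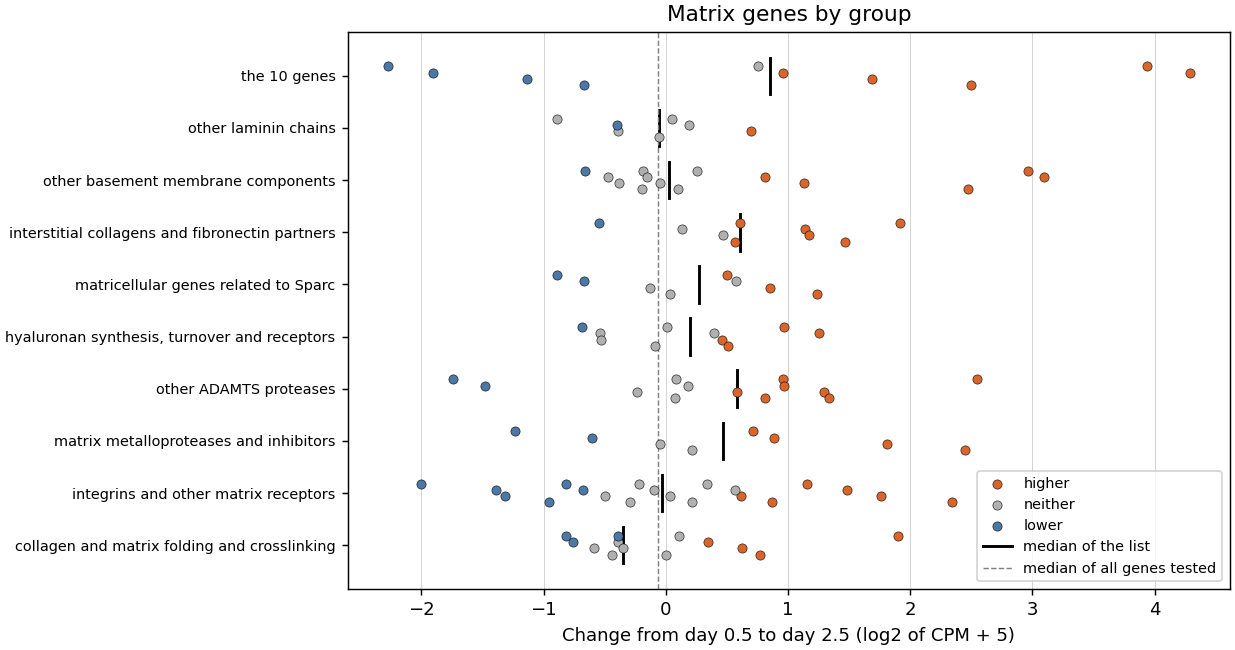
Change from day 0.5 to day 2.5, as log2 of CPM + 5, for each matrix gene with at least 20 UMIs, in rows by group, coloured by whether it was called higher, lower or neither. Black bars give the median of each group and the dashed line that of all genes tested (-0.06). Each row holds genes on both sides of the dashed line.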

How the data were processed

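The sources give 1 line of cells at 2 time points, with the day taken from the deposited cell tables. The authors deposited expected counts of UMIs per gene and cell (11.1% of values above 0 are fractions), whole counts of UMIs on genes and exons per cell, cell cycle classes, and a pseudotime score from the chrX table, per the file headers and values. The submitters' processing notes name the build GRCm38. Which aligner and counter were used, and whether strand was, is not stated there. UMIs on exons were 26.3% of gene UMIs at day 0.5 and 24.2% at day 2.5, so unspliced RNA of long genes weighs in. Of 471 cells named in the labels, 406 were in the table, and 1101 of its columns that belong to no sample here were not used.

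UMIs were summed per day and scaled to CPM. Intervals are exact Poisson (levels), exact conditional (ratios) and Clopper-Pearson (shares), and the limit for a count of 0 is 3 counts. Thinned shares were computed exactly. Calls needed 20 UMIs, a ratio of 1.5 and the same direction in both letters. Overdispersion was given a rank among genes with at least 100 UMIs, and classes needed 10 cells. Beyond the 10 genes, up to 4 genes per list with the most UMIs were named, genes with r of at least 0.3, and, after their values were seen, other called genes of lists with 5 or fewer. The genes and lists were chosen with earlier results of these data known, and 1 gene of a list is not reported here. Positions and sequences are RefSeq's (GRCm38). Python 3.11.15, numpy 2.4.6, scipy 1.17.1 and pandas 2.3.3 were used, and the statistics were tested on simulated data.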

Additional observations from a re-analysis of the deposited data

How the results depend on the processing

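The 5 genes called higher, the 4 called lower and the median change of 0.86 were recomputed under 11 alternatives: other scaling, pseudocount or minimum, means over cells, whole UMIs, deeper cells, 1 batch, 1 letter, cells of the allele table, and without the 5 top cells of each gene. Of these 33 values 32 kept within 1.5 times or within the spread of the genes, but part of this tally could hardly fail. The other pseudocount and the dropped minimum could not alter a call. Calls use the CPM ratio without a pseudocount, and every gene passed the minimum. Without the 5 top cells Has2 had 0 CPM left at day 0.5, so its call could hardly change. The median was held only to the spread of the genes, whose changes ran from -2.27 (Fn1) to 4.29 (Has2). Its value of 0.44 in letter B cells thus counted as kept. In letter B cells alone (42 and 32 cells) 2 genes were called lower. Lamc1 was not called, nor were Nid1 and Col4a1, each under 20 UMIs there. The change of Col4a2, also under 20 UMIs there, was -0.58 in place of 0.75. Under median-ratio scaling the median change over all genes was 0.07 in place of -0.06, and that of Lamc1 was -0.50 in place of -0.67, which ended its call and left 3 genes called lower. Without the 5 top cells the overdispersion of Sparc (0.183) and Nid1 (2.12) at day 2.5 became -0.21 and -1.07. No cell held more than 3.5 UMIs of Sparc or 2 of Nid1 there. Leaving out the highest counts by itself lowers this value, and any further cause was not tested. The share of cells moved beyond its interval in 40 of 80 alternatives, as a share follows depth and the minimum of UMIs. The check of G1 and Mid-S cells without the 5 top cells was chosen after seeing the data. Depth limits Nid1, Col4a2, Sparc and Lama1 at day 2.5 most, with 12.5, 69.5, 91.5 and 99 UMIs.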

Other observations

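Of the day 2.5 cells, 59.5% were also in the authors' allele table and the other 83 cells were not, at similar median depths of 15652.5 and 16091 UMIs. Has2 had 136.5 CPM (120.3 to 154.4) inside and 83.4 CPM (68.6 to 100.6) outside that table, and Adamts6 had 482 and 375 CPM. Lamb1 went the other way, with 142.7 CPM inside and 185.8 CPM outside. How cells were kept for that table is not stated. At day 0.5 the 15 cells outside it matched the 15 cells of class M in median depth (5818 UMIs) and in the UMIs of each of the 10 genes. There the table thus appears to leave out class M. The day 2.5 cells inside the table were put in 3 parts by the deposited pseudotime. From the first to the last part Has2 had 99.3, 124.2 and 185.8 CPM, and Lama1 had 67.4, 15.7 and 26.5 CPM. The parts had median depths of 13326, 16485 and 15856.5 UMIs. How the score was computed is not stated. It may rest on the RNA of these same cells, so the levels may not be independent of it.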
